A study of Mus musculus with 11 samples.

Results

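Motile cilia are the beating hairs of the airway's multiciliated cells. Each one carries a ring of doublet microtubules around a central pair; dynein arms on the doublets make the cilium bend, and radial spokes pass signals from the central pair to the arms. In the lung these cells move mucus out of the airways, and loss of single axoneme genes causes primary ciliary dyskinesia. A small transcription program, with Mcidas, Ccno, Foxj1 and the RFX factors, switches the whole gene set on when a cell becomes multiciliated.

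The 39 genes described here were chosen by symbol and cover that program, the dyneins, their assembly factors, the spokes, the central pair, the tektins and other genes of ciliated cells. All 39 were measured, among 19938 genes in all. Expression was read from lung tissue of 129S1 mice on 11 arrays. The control group, labelled untreated, had n = 2 arrays, and aspirin (4 mg per kg), triptolide (1 mg per kg) and the combination of both at those doses had n = 3 each. Treated mice were gavaged on 5 days of each week for 2 months, and the series title places the work in lung cancer suppression. Aspirin inhibits the cyclooxygenases, and triptolide is a plant diterpenoid that blocks transcription. Age and sex are absent from the labels, and the protocol mentions a PBS group where the titles say untreated control. Nothing states that the arrays of a group are separate animals, so the tests measure only the spread between these samples, which may be technical.

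Values are log2 levels, so differences are log2 of a ratio, and a fold is given beside some of them. Differences come with the SE of the limma fit unless an SD is named.

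Most of the ciliated cell genes varied together from array to array, and the arrays of 1 group did not share a level. The level of the 39 genes on an array was taken as the mean, over the genes, of each value minus that gene's own mean over the 11 arrays. It was -0.35 and -0.05 on the control arrays, and 0.03, 0.14 and -0.10 with aspirin. Triptolide arrays read 0.14, -0.15 and -0.06. Combination arrays read -0.28, 0.36 and 0.32, which holds both the highest levels of the series and the second lowest. Control 1 was the lowest array for 26 of the 39 genes and combination 1 for 9. Combination 2 was the highest for 20 and combination 3 for 15. In 30 genes the top pair of arrays was combination 2 and 3, and in 25 the bottom pair was control 1 and combination 1. Group means of the level were -0.20 ± 0.22 (SD, n = 2) in control, 0.03 ± 0.12 (n = 3) with aspirin, -0.02 ± 0.15 with triptolide and 0.13 ± 0.36 with the combination, so the combination's spread between arrays was as large as its distance from control. In lung tissue, fewer ciliated cells and less RNA per ciliated cell cannot be told apart.

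**Figure D1:**
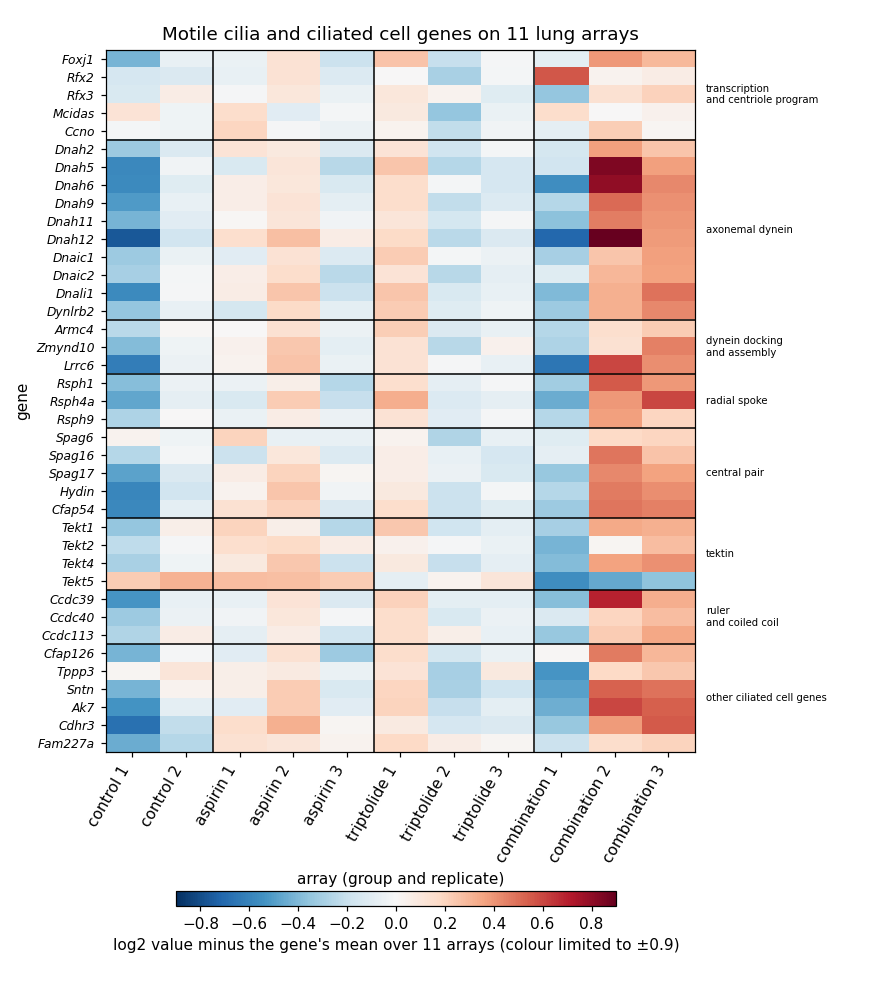
Each row is a gene and each column an array, with the log2 value minus the gene's mean over the 11 arrays in colour and black lines between groups and between roles. Control 1 and combination 1 are blue in most rows, combination 2 and 3 are red in 38 of 39 rows each, and Tekt5 has high values in control and aspirin and low ones in the combination.

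**Figure D2:**
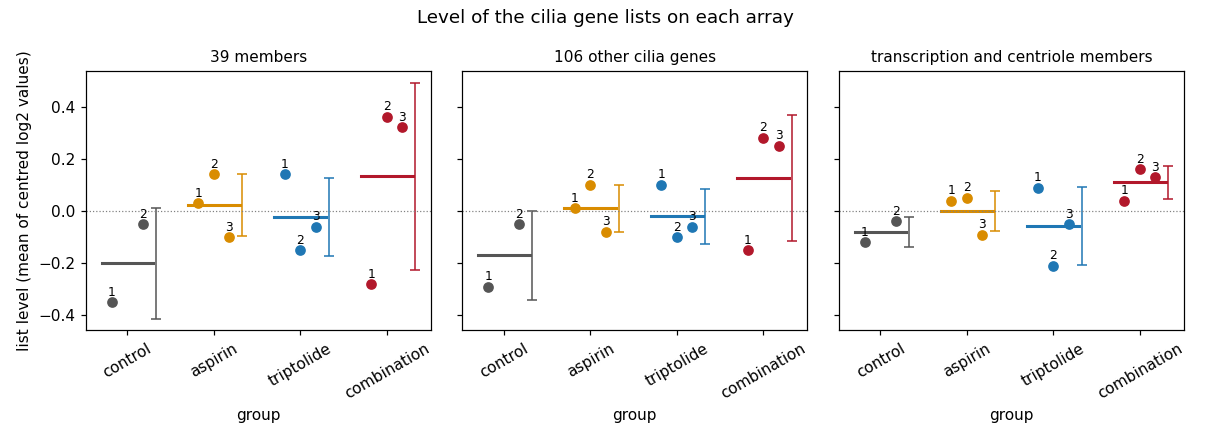
Points are arrays, numbered by replicate, horizontal lines are group means and bars are ± SD, on a scale of mean centred log2 values. The 39 genes and 106 other cilia genes show the same layout, with combination 1 far below combination 2 and 3, while the transcription and centriole genes stay within a narrower range.

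Promoters are described here because most genes of the set varied together and RFX factors are among its members. RFX factors bind the X-box, whose half-site reads GTTGCC, and its reverse complement GGCAAC marks the same site on the other strand. RefSeq promoters of the GRCm38.p6 build, from 250 bases before to 50 bases after each listed start, were matched for 32 of the 39 genes. Foxj1, Armc4, Lrrc6, Rsph1, Rsph4a, Cfap54 and Tppp3 had no entry. On either strand the half-site was present in 18 of 37 promoters of the set (48.6%), against 4111 of 32851 promoters in the table (12.5%). By gene these were 17 of 32 (53.1%) and 14.1% of all genes. Among other genes of the cilia pathway 41 of 105 promoters held it. The forkhead letters GTAAACA (reverse complement TGTTTAC), of the kind bound by Foxj1 and many related factors, were in 2 of 37 promoters of the set (5.41%) and in 3.65% of all promoters. The letters of the motifs cannot overlap each other, and a match is a description of the sequence and not a binding site.

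Printed below are the 150 bases before the start for 5 genes with the half-site, taken from the central pair, dynein, tip and tektin roles. Tekt5, whose levels departed from the rest, is printed as well. In the full windows the half-site was also present for Mcidas, Ccno, Rfx2 and Rfx3. It was absent for Rsph9 and for Dnah2, Dnah5, Dnah6, Dnah9, Dnah11 and Dnah12. Whether the half-site goes with the levels was not tested. Capitals mark the half-site, each strand reads 5′ to 3′ in the direction of the gene, and positions count back from the start. Hydin lies at chr8:110266827-110266976 (plus strand), with the half-site's first base at -13. Spag16 lies at chr1:69826820-69826969 (plus), with half-sites at -111 and -103 in opposite directions. Dynlrb2 lies at chr8:116504865-116505014 (plus), with a half-site at -51, and Sntn at chr14:13670726-13670875 (plus), with one at -66. Tekt1 lies at chr11:72361883-72362032 (minus), where the half-sites start at -35 and -15; a second listed Tekt1 start held no match in its 150 bases. Tekt5 lies at chr16:10395456-10395605 (minus), and the letters of the half-site are not in this window.
Hydin: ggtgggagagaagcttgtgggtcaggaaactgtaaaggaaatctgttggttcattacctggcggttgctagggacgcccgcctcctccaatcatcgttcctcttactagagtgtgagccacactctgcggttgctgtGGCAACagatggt
Spag16: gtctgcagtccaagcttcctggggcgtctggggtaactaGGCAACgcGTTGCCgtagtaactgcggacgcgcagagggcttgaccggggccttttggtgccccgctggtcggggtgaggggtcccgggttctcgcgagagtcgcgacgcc
Dynlrb2: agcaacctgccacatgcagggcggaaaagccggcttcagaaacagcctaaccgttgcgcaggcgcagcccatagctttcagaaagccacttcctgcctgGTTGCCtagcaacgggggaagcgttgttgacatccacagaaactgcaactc
Sntn: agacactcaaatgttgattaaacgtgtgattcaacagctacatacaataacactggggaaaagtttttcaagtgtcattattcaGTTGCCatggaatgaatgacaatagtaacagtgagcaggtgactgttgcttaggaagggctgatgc
Tekt1: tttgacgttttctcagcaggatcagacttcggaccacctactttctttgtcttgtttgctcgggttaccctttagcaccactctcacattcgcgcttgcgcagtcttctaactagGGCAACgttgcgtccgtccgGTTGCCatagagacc
Tekt5: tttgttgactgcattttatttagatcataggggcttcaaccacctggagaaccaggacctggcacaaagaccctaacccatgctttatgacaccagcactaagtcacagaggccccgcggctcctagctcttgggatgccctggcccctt

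The arrays differed in ways the treatments do not name, and these bear on every comparison below. Combination 1 stood apart: the level of 11 cycling genes was 2.74 there and between -0.46 and -0.07 on the other 10 arrays, and that of 6 erythroid genes was 3.33 there against -0.79 to 0.58 elsewhere. Its alveolar type 1 level (11 genes) was -0.82 and its alveolar type 2 level (15 genes) -0.69, both the lowest of the series. Aspirin 2 carried neutrophil genes, at a level of 2.64 against -0.62 to 0.45 elsewhere over 10 genes. Xist, the RNA that coats an inactive X chromosome, read 11.98 and 12.07 in control and 12.26 to 12.80 with the combination. It read 7.00, 6.86 and 6.77 with aspirin, and 12.32, 9.75 and 6.61 on triptolide 1, 2 and 3. Uty, on the Y chromosome, was low on the control and combination arrays and on triptolide 1, and high on the aspirin arrays and on triptolide 2 and 3, so triptolide 2 carried both a high Uty and an intermediate Xist. Control and combination arrays were thus alike in these genes, whereas aspirin against control, and the combination against aspirin, cannot be told apart from that difference. Triptolide against control, and the combination against triptolide, carry the same difference in part, through triptolide 2 and 3. Pairs of arrays correlated across all genes between 0.9474 and 0.9965, and no pair of arrays was identical.

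**Figure D3:**
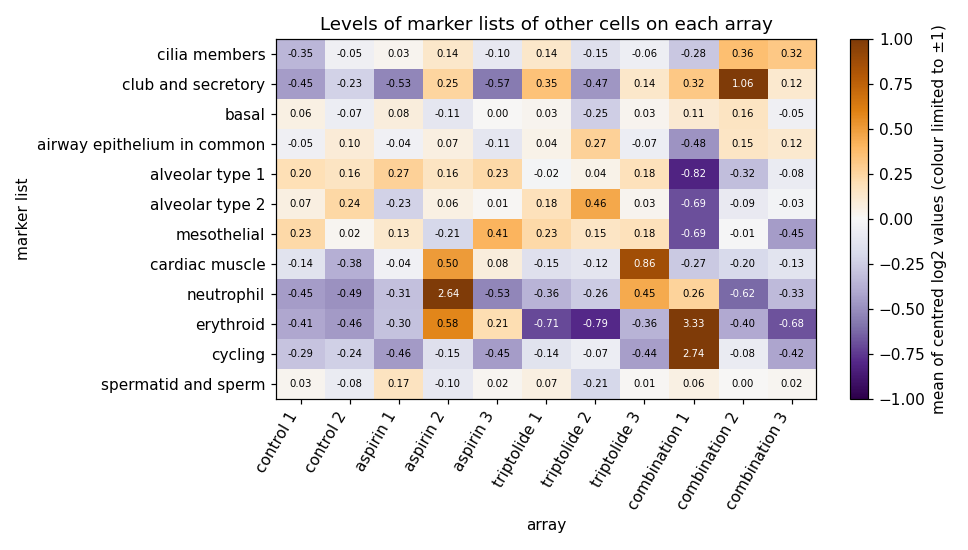
Cells of the grid give the mean centred log2 value of each marker list on each array, with the colour limited to ±1. The row of cilia genes has its own pattern, and combination 1 stands out in the erythroid (3.33), cycling (2.74) and alveolar rows.

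The comparison of the combination with control asks what both drugs together did to these genes. With the combination, 37 of 39 genes lay above control, with a median difference of 0.37, where 52.8% of all genes lay above control with a median of 0.01. None passed limma's test at an adjusted p under 0.05 (percent of all genes called: 0), and none did in the ordinary fit without moderated variances. At an unadjusted p under 0.05, 12 of the 39 were higher, against 3.41% of all genes, and 1 was lower, against 10.6%. Groups did not overlap in 3 genes that were higher (Rfx2, Cfap126 and Fam227a), against 14.2% of all genes, and in 1 that was lower (Tekt5), against 20.5%.

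Leaving out combination 1 changed the size of that difference. Without it the median over the 39 genes was 0.55, and the groups stood apart with the combination higher in 37 of 39, against 23.7% of all genes, and lower in 1 (Tekt5), against 28.4%. Under the same omission 32 of 39 were higher at an unadjusted p under 0.05 (5.32% of all genes) and 1 lower (8.68%), but 0 passed limma after adjustment, where the smallest adjusted p was 0.0505; 1 of all genes passed (0.00502%). With array weights, an alternative that gives combination 1 almost no weight and whose estimation did not converge, limma called 29 of the 39 (19.2% of all genes). Leaving out control 1, the lowest array for 26 of the 39 genes, moved the median the other way, to 0.21. Without control 2 it was 0.50. Over all other settings the difference ran from 0.37 to 1.02 for Dnah5, from 0.27 to 0.62 for Foxj1 and from 0.38 to 0.83 for Hydin. Values given below without combination 1 show only the omission that raised most differences. The markers of other cells on combination 1 moved with this result, and their part in it was not tested.

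**Figure D4:**
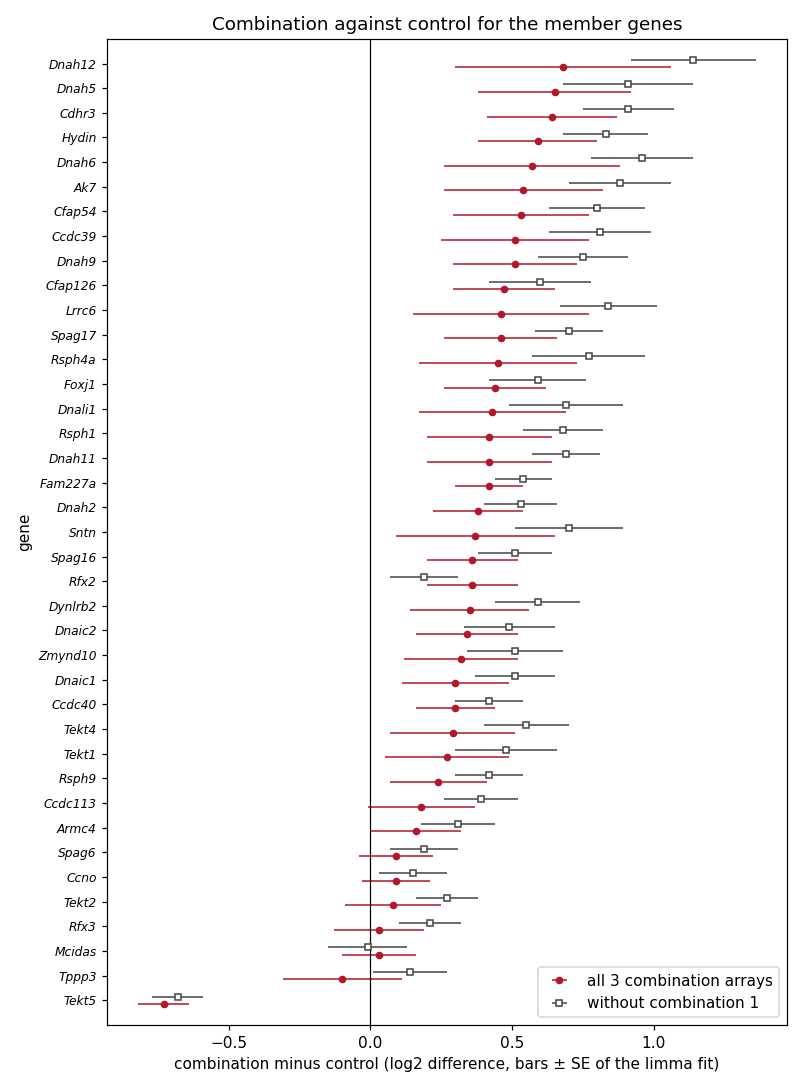
Points are the log2 difference between combination and control for each of the 39 genes, with bars of ± SE from the limma fit. Filled circles use all 3 combination arrays and open squares leave out combination 1; squares lie to the right of circles for most genes, and Tekt5 lies on the far left in both at -0.73 and -0.68.

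The transcription and centriole program had the smallest median difference of any role in the set, 0.09, with a range from 0.03 to 0.44. Foxj1, the forkhead factor that drives the motile cilia program, read 9.15 and 9.50 in control, 9.52, 9.70 and 9.39 with aspirin, 9.83, 9.36 and 9.57 with triptolide, and 9.48, 9.96 and 9.87 with the combination. Combination 1 lay just below control 2, so the groups overlapped, and the difference from control was 0.44 ± 0.18 (SE; limma adjusted p = 0.304). Rfx2, an X-box binding factor, read 9.41 and 9.42 in control and 9.49, 9.68 and 9.44 with aspirin. It was at 9.55, 9.27 and 9.54 with triptolide, and at 10.12, 9.59 and 9.63 with the combination. Its highest value was on combination 1, the array where most other genes of the set were low; the difference was 0.36 ± 0.16 (limma adjusted p = 0.344) with that array and 0.19 ± 0.12 without it.

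Mcidas, the coregulator that starts multiciliated cell fate, read 8.54 and 8.38 in control, 8.58, 8.33 and 8.41 with aspirin, 8.51, 8.07 and 8.36 with triptolide, and 8.59, 8.42 and 8.47 with the combination. No group stood apart from another. Ccno, its neighbour on chromosome 13 and a cyclin-like protein needed to amplify centrioles, gave 8.12 and 8.10 in control, 8.33, 8.13 and 8.09 with aspirin, 7.92 to 8.17 with triptolide and 8.06, 8.36 and 8.16 with the combination. The combination differed from control by 0.03 ± 0.13 for Mcidas and 0.09 ± 0.12 for Ccno (limma adjusted p = 0.947 and 0.812); the sign of the Mcidas difference turned in several settings. Rfx3 differed by 0.03 ± 0.16.

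Axonemal dyneins, the motors of the cilium, had the widest swings between arrays. All 10 lay above control with the combination, by 0.30 to 0.68. Without combination 1 the differences were 0.49 to 1.14, and the groups stood apart in all 10, against 23.7% of all genes. Dnah5, an outer arm heavy chain that is a frequent cause of primary ciliary dyskinesia, was at 9.03 and 9.59 in control, 9.47, 9.72 and 9.36 with aspirin, 9.86, 9.35 and 9.47 with triptolide, and 9.44, 10.45 and 9.98 with the combination. Combination 1 lay between the control values and the other combination arrays above both, and the difference was 0.65 ± 0.27 (limma adjusted p = 0.315).

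Dnah12, an inner arm heavy chain, had the widest range of the set, 1.73, from 9.24 on control 1 to 10.97 on combination 2. It was at 9.82 on control 2, at 10.06 to 10.26 with aspirin, at 9.75 to 10.16 with triptolide and at 9.29 and 10.37 on the other combination arrays. Its difference of 0.68 ± 0.38 (limma adjusted p = 0.463) became 1.14 ± 0.22, a 2.20-fold difference, without combination 1 (adjusted p = 0.0554). A second Dnah12 row of the array gave 0.72, and the 3 rows of Dnah6 gave 0.57, 0.55 and 0.51. The outer arm chains Dnah9 and Dnah11 differed by 0.51 ± 0.22 and 0.42 ± 0.22, and the inner arm chains Dnah2 and Dnah6 by 0.38 ± 0.16 and 0.57 ± 0.31. The intermediate chains Dnaic1 and Dnaic2 differed by 0.30 ± 0.19 and 0.34 ± 0.18, and Dnali1 and Dynlrb2, of the light chain classes, by 0.43 ± 0.26 and 0.35 ± 0.21.

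Genes that assemble the arms and fit them to the axoneme had a layout like that of the motors. Lrrc6, a cytoplasmic dynein assembly factor, was at 8.13 and 8.70 in control and at 8.09, 9.35 and 9.17 with the combination. Combination 1 was thus level with control 1, and the difference of 0.46 ± 0.31 became 0.84 ± 0.17 without it. Zmynd10, which works with Lrrc6, differed by 0.32 ± 0.20, and Armc4, an outer arm docking protein, by 0.16 ± 0.16, or 0.24 on its second row.

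Radial spoke genes gave 0.42 ± 0.22 for Rsph1, 0.45 ± 0.28 for Rsph4a and 0.24 ± 0.17 for Rsph9, all spoke head or neck proteins. Without combination 1 they lay 0.42 to 0.77 above control and the groups stood apart in all 3, against 23.7% of all genes. The central pair genes had a median difference of 0.46. Hydin, a giant protein of the central pair projections, read 9.40 and 9.83 in control, 10.03, 10.24 and 9.96 with aspirin, 10.08, 9.80 and 9.98 with triptolide, and 9.74, 10.46 and 10.42 with the combination. Every aspirin value exceeded both control values, whereas triptolide 2 and combination 1 lay between them; the combination difference was 0.59 ± 0.21 (limma adjusted p = 0.235).

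Spag16, also a central pair protein, was at 7.58 and 7.82 in control, 7.66, 7.95 and 7.72 with aspirin, 7.91, 7.77 and 7.69 with triptolide, and 7.76, 8.32 and 8.10 with the combination. Its highest arrays were combination 2 and 3, and combination 1 lay below control 2. Spag17 and Cfap54 differed by 0.46 ± 0.20 and 0.53 ± 0.24, and a second Cfap54 row also gave 0.53. Spag6, measured here by the row of a gene on chromosome 2 that has a near-identical paralog in mouse, was flat at 0.09 ± 0.13, and signal of the pair may not be separable.

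The ruler and coiled coil genes Ccdc39 and Ccdc40, which set the axoneme's repeat, lay 0.51 ± 0.26 and 0.30 ± 0.14 above control, and Ccdc113 0.18 ± 0.19. Of the other ciliated cell genes, Fam227a had the narrowest range over the 11 arrays, 0.66. It read 7.64 and 7.83 in control, 8.23, 8.20 and 8.13 with aspirin, 8.28, 8.16 and 8.12 with triptolide, and 7.91, 8.26 and 8.30 with the combination. Both controls lay below all 9 treated arrays. The differences from control were 0.45 ± 0.12 with either drug and 0.42 ± 0.12 with both, and none passed (limma adjusted p = 1, 1 and 0.171).

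Cdhr3, a cadherin of ciliated cells that rhinovirus C uses as a receptor, read 9.48 and 9.93 in control, 10.31, 10.47 and 10.17 with aspirin, 10.22, 10.00 and 10.02 with triptolide, and 9.81, 10.53 and 10.70 with the combination. Aspirin and triptolide arrays all lay above both controls, but combination 1 did not. Its combination difference of 0.64 ± 0.23 became 0.91 ± 0.16 without that array. Cfap126, which takes part in placing basal bodies, was at 8.50 and 8.91 in control, 8.82, 9.06 and 8.59 with aspirin, 9.08, 8.76 and 8.86 with triptolide, and 8.93, 9.39 and 9.22 with the combination; combination 1 exceeded control 2 by a margin far below the spread within control. Ak7, an adenylate kinase of cilia, and Sntn, a protein of the ciliary tip, differed by 0.54 ± 0.28 and 0.37 ± 0.28. Tppp3, a microtubule-binding protein found in ciliated cells, was at 12.58 and 12.66 in control and at 12.03, 12.73 and 12.79 with the combination, so of the combination arrays only combination 1 lay below control, and the difference was -0.10 ± 0.21.

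Tekt5 ran against the rest of the set. Tektins are filament proteins inside the doublet microtubules, and Tekt5 is best known from the sperm flagellum. It read 9.29 and 9.37 in control, 9.34, 9.32 and 9.29 with aspirin, 8.98, 9.08 and 9.17 with triptolide, and 8.49, 8.60 and 8.69 with the combination. Aspirin arrays lay at the level of control, triptolide arrays lay below both groups with no overlap, and combination arrays lay below all others. Combination minus control was -0.73 ± 0.09 (0.601-fold; limma adjusted p = 0.0567), combination minus aspirin -0.72 ± 0.08 (adjusted p = 0.0643) and combination minus triptolide -0.48 ± 0.08 (adjusted p = 0.353). Triptolide minus control was -0.25 ± 0.09 and triptolide minus aspirin -0.24 ± 0.08 (limma adjusted p = 1 and 0.96).

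The Tekt5 difference between combination and control missed the threshold by little and passed it in 9 of 21 other settings. Across those settings it ran from -0.81 to -0.68, and limma's adjusted p from 0.00136 to 0.667, the highest without control 1. Tekt5 was low on all 3 combination arrays, combination 1 included. The level of 14 spermatid and sperm genes stayed between -0.21 and 0.17 on all arrays. The level of 11 alveolar type 1 genes had group means in a like order, 0.18 in control, 0.22 with aspirin, 0.06 with triptolide and -0.41 with the combination (-0.82, -0.32 and -0.08 by array), and its part in the Tekt5 values was not tested. The interaction of the drugs for Tekt5, combination minus aspirin minus triptolide plus control, was -0.47 ± 0.12 (limma adjusted p = 0.895).

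Tekt1 and Tekt4 had the layout of most of the set, and Tekt2 did so only in part. Tekt1 was at 8.42 and 8.81 in control and 8.47, 9.10 and 9.08 with the combination, and Tekt4 at 9.22 and 9.47 against 9.12, 9.87 and 9.92. Both were low on combination 1 and highest on combination 2 and 3, and differed from control by 0.27 ± 0.22 and 0.29 ± 0.22. Tekt2 read 8.33 and 8.54 in control, 8.71, 8.72 and 8.63 with aspirin, 8.59, 8.54 and 8.49 with triptolide, and 8.13, 8.57 and 8.83 with the combination. Its aspirin arrays lay above all control and triptolide arrays and above combination 2. The combination differed from control by 0.08 ± 0.17, and the interaction was -0.28 ± 0.22 (limma adjusted p = 0.895).

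**Figure D5:**
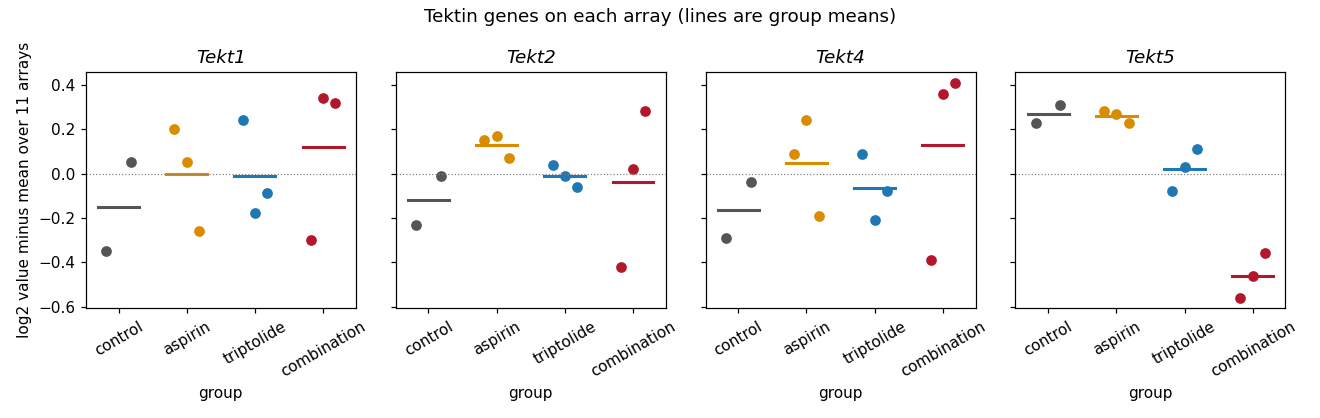
Each panel plots a tektin gene's log2 value minus its mean over the 11 arrays, with points for arrays and lines for group means. Tekt1 and Tekt4 spread widely within the combination group, whereas the 3 combination values of Tekt5 lie together, from -0.56 to -0.36, below all other arrays.

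Each drug alone was compared with the same 2 control arrays, so these comparisons and the one above share their control. With aspirin, 36 of 39 genes lay above control (48.3% of all genes did) with a median difference of 0.21. None passed limma or the ordinary fit (0% of all genes); 2 were higher at an unadjusted p under 0.05 (1.35% of all genes) and 0 lower (1.71%), and the groups stood apart with aspirin higher in 9, against 10.0%. Fam227a, Cdhr3 and Hydin led, at 0.45 ± 0.12, 0.61 ± 0.23 and 0.46 ± 0.21 (limma adjusted p = 1 for each). Without control 1 the median was 0.06.

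With triptolide, 34 of 39 lay above control (45.0% of all genes), the median difference was 0.20, and none passed limma or the ordinary fit (0% of all genes). At an unadjusted p under 0.05, 1 was higher (Fam227a), against 1.16% of all genes, and 1 lower (Tekt5), against 1.66%. Groups stood apart with triptolide higher in Fam227a, Cdhr3 and Dnaic1, against 9.92% of all genes, and lower in Tekt5, against 13.3%. Hydin differed by 0.34 ± 0.21. With array weights, limma called 1 gene for triptolide (1.69% of all genes) and 5 for aspirin (14.7%). The median for triptolide was 0.02 without control 1.

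Adding the second drug was read from the combination against each drug alone. Against aspirin, 34 of 39 genes lay higher (50.0% of all genes) with a median of 0.12, and none passed limma or the ordinary fit (0% of all genes). These groups differ on every array in Xist and the Y-linked genes. In the fit that adds the level of the Y-linked genes as a covariate the median was -0.15, with 4 of 39 above 0. Within groups that covariate varied mainly among the triptolide arrays (Uty 6.29, 9.26 and 8.97). The fit thus leans on triptolide 1, where the level of the 39 genes was 0.14. It cannot separate aspirin from the Y-linked difference. At an unadjusted p under 0.05 Tekt5 was lower (8.22% of all genes were) and 0 were higher (3.43%). Groups stood apart in 0 genes that were higher (5.47% of all genes) and in Tekt5, lower (9.86%). After Tekt5 came Cfap126 at 0.36 ± 0.16 and Spag16 at 0.29 ± 0.14 (limma adjusted p = 0.437 and 0.468). Against triptolide, 34 of 39 lay higher (53.3% of all genes) with a median of 0.18, none passed limma or the ordinary fit (0%), and Rfx2 (0.33 ± 0.14, limma adjusted p = 0.364) was higher at an unadjusted p under 0.05 (3.50% of all genes), with Tekt5 lower (10.1%). The groups stood apart in the same direction for each of these (8.36% of all genes higher, 9.53% lower). Spag16 differed by 0.27 ± 0.14. With the Y-linked covariate the median against triptolide was -0.04, with 12 of 39 above 0. Without combination 1 these medians were 0.35 and 0.39, and without combination 2 they were 0.00 and 0.04.

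The 2 drugs set against each other gave 12 genes higher (46.9% of all genes) and 27 lower with triptolide, a median of -0.04 and no call by limma or the ordinary fit (0% of all genes). Tekt5 alone was lower at an unadjusted p under 0.05 (1.52% of all genes) and 0 were higher (1.79%). Groups stood apart in 0 genes that were higher (5.89% of all genes) and in Tekt5 and Tekt2, lower (4.00%). Next came Cdhr3 at -0.24 ± 0.21 and Ccno at -0.12 ± 0.11 (limma adjusted p = 0.96 for both). The interaction lay above 0 in 11 genes (52.0% of all genes), with a median of -0.07 and no call by limma or the ordinary fit (0% of all genes). At an unadjusted p under 0.05, 0 were higher (1.19%) and 2 lower (2.23%), Tekt5 and Fam227a (-0.48 ± 0.17, limma adjusted p = 0.895). Its median changed sign to 0.08 without control 1 and to 0.15 without combination 1.

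Other genes of the pathway, from a wider list of cilia genes written from general knowledge, also lay mostly above control. Of 118 listed, 106 were measured. With the combination, 100 lay above control (52.8% of all genes did) and 6 below, with a median of 0.29, and 0 passed limma. At an unadjusted p under 0.05, 21 were higher, against 3.41% of all genes, and 1 (E2f5, -0.41 ± 0.16) lower, against 10.6%. Without combination 1 the median was 0.47 and the groups stood apart, combination higher, in 90 of 106, against 23.7% of all genes. By role, the median with all arrays was 0.42 for 16 spoke and central pair genes, 0.32 for 9 nexin-dynein regulatory genes, 0.31 for 41 doublet proteins, 0.28 for 17 dynein and docking genes, 0.22 for 8 assembly factors and 0.13 for 15 transcription and centriole genes.

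Myb, a transcription factor of early multiciliated cells and of many dividing cells, had the smallest p of that list. It read 8.89 and 9.22 in control, 9.33, 9.36 and 9.25 with aspirin, 9.58, 9.28 and 9.29 with triptolide, and 9.93, 9.71 and 9.85 with the combination. All combination arrays exceeded all others, combination 1 the most, and the difference was 0.78 ± 0.13 (limma adjusted p = 0.0579). Mns1, an axonemal doublet protein, was at 8.35 and 8.58 in control and at 9.37, 8.94 and 8.94 with the combination, 0.62 ± 0.15 higher (limma adjusted p = 0.101). Both were highest on combination 1, where the level of cycling genes was 2.74, and the part of that in their values was not tested. Against aspirin and triptolide the combination differed by 0.52 ± 0.11 and 0.45 ± 0.11 for Myb and by 0.52 ± 0.13 and 0.47 ± 0.13 for Mns1. With aspirin, Dydc1 and Dnah3 led the list at 0.25 ± 0.09 and 0.59 ± 0.21. Triptolide gave 0.33 ± 0.13 for Myb and 0.19 ± 0.09 for Dydc1 against control, and -0.22 ± 0.13 for Noto and -0.20 ± 0.12 for Rfx4 against aspirin. The interaction was 0.59 ± 0.25 for Dnah8 and 0.38 ± 0.20 for Mns1 (limma adjusted p = 0.895 for both).

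Likeness to the set's level was measured as the mean absolute log2 difference, over the 11 arrays, between a gene's centred values and the level. Its median was 0.08 over the 39 genes, whose own values enter the level, and 0.21 over all genes. Dynlrb2, Dnah2 and Rsph9 followed it most closely, at 0.05 each. Tekt5 (0.36), Mcidas (0.21) and Dnah12 (0.20) were the farthest, Dnah12 through the size of its swings. Outside the set the closest were Dlec1 at 0.03, Dnah1, Ctxn1, Tsnaxip1, Kif9, Lrrc23 and Wdr31 at 0.04, and Cfap157 at 0.05. Dlec1 read 8.45 and 8.74 in control and 8.62, 9.25 and 9.15 with the combination, low again on combination 1.

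Marker genes of other airway cells shared the layout of the cilia genes only in part. The level of 17 club and secretory genes was -0.45 and -0.23 in control, and -0.53, 0.25 and -0.57 with aspirin. It was 0.35, -0.47 and 0.14 with triptolide, and 0.32, 1.06 and 0.12 with the combination. This mean was not low on combination 1, but the genes were split there. Of the 17 genes, 14 lay above control with the combination (52.8% of all genes) and 0 passed limma. At an unadjusted p under 0.05, 7 were higher, against 3.41% of all genes. Scgb1a1, the club cell secretoglobin, was flat at 0.03 ± 0.11, while Muc5b, a mucin, differed by 1.37 ± 0.59. On combination 1, Scgb1a1 (13.75), Cyp2f2 (13.55), Aldh1a1 (12.44) and Cbr2 (13.63) were each at their lowest of the 11 arrays. Reg3g (10.10), Agr2 (9.20), Muc5b (11.12) and Bpifb1 (11.53) exceeded both controls there. The 8 genes common to airway epithelium were at -0.48 on combination 1 and between -0.11 and 0.27 elsewhere. All 11 alveolar type 1 genes lay below control with the combination, at a median of -0.58. So did 14 of 15 alveolar type 2 genes, at -0.44, and none of either passed limma. At an unadjusted p under 0.05, 8 and 6 of them were lower, against 10.6% of all genes. Sftpc, the surfactant gene that marks alveolar type 2 cells, was between 13.62 and 14.27 on all arrays, as a check of the labelled tissue. The scale has no zero and no detection call, so absence of a marker cannot be read from it, and the part of cell makeup in the ciliated gene levels was not tested.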

How the data were processed

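Lung RNA of 11 samples was hybridised to Affymetrix arrays. The deposited table gives log2 values per row and array; RMA and Partek are named in the submitters' processing notes, and versions and settings were not given in the sources used here. Medians of the 11 arrays lay between 8.135 and 8.254. No detection call comes with the values, and precision is limited by the number of arrays. Of 35556 rows, 21789 carried 1 symbol in GEO's platform annotation and the row with the highest mean stood for a gene, which left 19938 genes; no row filter was applied.

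limma 3.58.1 in R 4.3.3 (lmFit, eBayes) was fitted over all 11 arrays and 4 groups, with 7 residual degrees of freedom. Tests were two-sided, with Benjamini-Hochberg adjustment over all genes at 0.05; the code was tested on simulated data. The genes, lists and rules were chosen with earlier results of these data known. Values in every group were given for Foxj1, Mcidas, Ccno, Dnah5 and Tekt5 and for the 3 genes with the smallest p in each comparison. Differences were given for 2 such genes of the wider pathway. Other genes of the set named with values on arrays (Dnah12, Lrrc6, Tppp3, Tekt1, Tekt4) were chosen after their values were seen. Same-numbered arrays were not paired: over 15 pairs their deviations correlated between -0.14 and 0.33, and 5 exceeded 0.1. Alternatives changed the scaling, filter, row choice, moderation, weights, samples, block and covariate, or left out each array.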

Additional observations from a re-analysis of the deposited data

How the results depend on the processing

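Over the other settings, 140 of 146 median differences moved by less than the within-group SD of the set's level (0.23). That margin exceeds the size of every main median except that of the combination against control (0.37). A median could thus vanish or change sign and still count as unmoved, as with triptolide against control at 0.02 without control 1. Of 146 counts of genes called, 126 stayed as they were. Of 555 single values, 520 kept their direction and their side of the threshold, 29 newly passed and none stopped passing. With array weights, whose estimation stopped before converging and which gave aspirin 3 a weight of 43.5 and combination 1 one of 0.107, limma called 5 genes of the set for aspirin against control, 1 for triptolide, 29 for the combination, 35 and 27 for the combination against aspirin and triptolide (32.5% and 24.9% of all genes), 5 for triptolide against aspirin (34.4% of all genes) and 6 for the interaction (10.7% of all genes). The median of the combination against aspirin became 0.45 and that of the interaction reversed to 0.26; Ccno in triptolide against aspirin reversed to 0.01.

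With the Y-linked level as covariate, the medians were 0.49 for aspirin and 0.45 for triptolide against control. They were -0.15 (reversed) and -0.04 (from 0.18) for the combination against aspirin and triptolide, and -0.57 for the interaction. Within groups this level varied mainly among the triptolide arrays, so these medians cannot separate aspirin from the Y-linked difference. The combination against control gave 1 call, Tekt5, with that covariate, median centring, quantile normalization, the dimmest genes left out, robust moderation with a trend, and the replicate block; against aspirin it gave 1 call with quantile normalization, the low genes left out and robust moderation. All genes called in combination against control then numbered 96, 335, 2, 66, 56 and 152 in that order, and against aspirin 2, 1 and 1. The replicate number as a block otherwise changed no call in the set. Mcidas in combination against control reversed to -0.04 with centring, -0.03 with quantiles and -0.02 with weights, and ran from -0.05 (without control 2) to 0.11 (without control 1) when arrays were left out, with -0.01 without combination 1.

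Leaving out 1 array at a time gave 0 to 1 calls in the combination against control and against aspirin (1 without triptolide 1 or without combination 3, Tekt5 each time, when 11 and 896 of all genes were called against control and 11 and 704 against aspirin) and 0 in the others. The medians ran from 0.21 to 0.55 for the combination against control, 0.06 to 0.35 for aspirin, 0.02 to 0.38 for triptolide, 0.00 to 0.35 and 0.04 to 0.39 for the combination against aspirin and triptolide, -0.13 to 0.02 for triptolide against aspirin and -0.23 to 0.15 for the interaction. Where this left a control alone, limma assumed that it varies like the other groups. The interaction needs all groups, so it has no value for only the groups compared. The causes of these moves were not tested, and signal over background is unknown.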

Other observations

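Genes outside the cilia list followed Tekt5 across the arrays, and they were looked for after its values had been seen. By the mean absolute difference of centred log2 values over the 11 arrays, the closest were Trim16, Ppp1r16b, Myrf, Coro2b, Jup, Pitpnc1 and Ephb4 at 0.07 and Tspan15 at 0.08. Jup, the junction protein plakoglobin, read 12.57 and 12.49 in control, 12.46, 12.53 and 12.48 with aspirin, 12.15, 12.33 and 12.34 with triptolide, and 11.64, 11.92 and 12.10 with the combination. As with Tekt5, aspirin arrays lay at the level of control, triptolide arrays lower and combination arrays lowest. Ephb4, an ephrin receptor of veins, differed from control by -0.07 ± 0.13 with aspirin, -0.35 ± 0.13 with triptolide and -0.69 ± 0.13 with the combination. Tspan15, a tetraspanin, had the largest combination difference of the 8, -0.88 ± 0.14. Limma's adjusted p for the combination against control lay between 0.0579 and 0.0855 for these 8 genes, and they share arrays and control with the Tekt5 values they were chosen by. The level of 11 alveolar type 1 marker genes had group means of 0.18, 0.22, 0.06 and -0.41 in control, aspirin, triptolide and combination, and its part in these values was not tested.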
